A study of Mus musculus with 4 samples.

Results

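The genes described here encode 10 heat shock proteins of the cytosol and the mitochondrion (Hspa1a, Hspa1b, Hsph1, Dnajb1, Hsp90aa1, Hspa8, Hspb1, Cryab, Hspd1 and Hspe1). They were taken by exact gene symbol from the platform annotation, whatever their values. Of the 10 genes, 9 had at least 1 feature on the array, 16 features in all out of 45220, and all 9 entered the fit of 19081 genes. Hspa1b had no feature listed under its own symbol and has no value below.

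Heat shock proteins are chaperones that hold unfolded proteins and help them to fold, assemble or be degraded. Under proteotoxic stress the transcription factor HSF1 binds heat shock elements, inverted repeats of the bases GAA, and switches on the inducible members, whereas constitutive members serve folding at all times. In the brain, neurons and glia hold high levels of the constitutive cytosolic chaperones, and the small heat shock proteins are found mainly in glia and vessels.

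RNA was taken from the globus pallidus, a basal ganglia nucleus of GABA neurons, of male C57BL6 mice trained in conditioned place preference, a test in which a drug is paired with 1 compartment and the time later spent there is scored. The cocaine mice were given 15 mg/kg on days 2, 3 and 4 of the protocol and had a high preference score, and the saline mice were given saline on the same days. The sources used here give neither age nor the time from last injection to dissection. The RNA was amplified linearly before labelling. Each of 4 Agilent arrays with 2 colours carried 1 cocaine mouse and 1 saline mouse, so that 4 pairs (4 mice per treatment) were compared. Cocaine RNA carried Cy5 in pairs 1 and 3 and Cy3 in pairs 2 and 4.

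The values are log2 ratios of the 2 mice of a pair. The sign of the deposited ratios turned with the dye (correlations across features, which are not replicates, of -0.847 to -0.947 between orientations), so they are read as turned to 1 treatment direction. The treatment in the numerator is not stated: it is likely cocaine, which the design text puts first, and if it is saline, every sign below is turned. The 8 pallidal neuron markers that were measured (such as Pvalb, Npas1, Lhx6 and Gad1) all had a recovered signal above 216 scanner units, the median of the named features, and 6 of them were above the 90th percentile. Markers of other cells were above that median as well, with 5 of 6 for projection neurons of the neighbouring striatum, 11 of 11 for oligodendrocytes, 8 of 8 for astrocytes and 7 of 7 for microglia, so the brightness does not set the dissected tissue apart from its neighbours. In bulk tissue, fewer cells of a type and less RNA per cell cannot be told apart. Precision is limited by the number of arrays.

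The promoters of some of these genes carry the HSF1 recognition pattern, and 3 are printed to show it beside the values that follow. RefSeq promoter entries (250 bases before to 50 after the gene start, GRCm38.p6) matched 7 of the 10 genes; Hsp90aa1, Hspa8 and Cryab had no entry. The letters GAANNTTC or TTCNNGAA, each its own reverse complement and able to overlap, occurred in a promoter entry of 6 of these 7 genes and in 15.1% of all 32851 promoters. The longer forms, GAANNTTC continued by NNGAA or TTCNNGAA continued by NNTTC, contain both short ones and occurred in 3 of the 7 genes (Hsph1, Hspe1 and Hspd1) and in 0.603% of all promoters. Dnajb1 held neither in its windows, which says nothing of HSF1 there. These 7 genes had 10 entries, and a gene was counted if any of its entries matched, whereas the shares of all promoters are per entry. Matches in Hspa1a and Hspa1b, or in Hspe1 and Hspd1, are not separate, as these windows are near-identical or shared. The sequences run 5′ to 3′ on the gene's strand, and capitals mark the matches.
Hspa1a promoter (chr17:34972107-34972406, minus strand): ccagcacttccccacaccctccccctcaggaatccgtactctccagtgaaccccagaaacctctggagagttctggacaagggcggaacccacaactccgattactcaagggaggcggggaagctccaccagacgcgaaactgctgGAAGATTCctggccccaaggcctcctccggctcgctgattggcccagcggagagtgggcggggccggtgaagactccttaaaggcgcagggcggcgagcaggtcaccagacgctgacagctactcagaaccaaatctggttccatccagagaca
Hspb1 promoter (chr5:135887669-135887968, plus strand): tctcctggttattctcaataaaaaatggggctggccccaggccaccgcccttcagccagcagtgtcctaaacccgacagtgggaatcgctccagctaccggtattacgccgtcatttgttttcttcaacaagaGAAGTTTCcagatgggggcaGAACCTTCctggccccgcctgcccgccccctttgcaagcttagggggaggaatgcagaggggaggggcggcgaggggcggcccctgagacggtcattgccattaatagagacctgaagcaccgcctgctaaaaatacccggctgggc
Hspe1 promoter (chr1:55087898-55088197, plus strand): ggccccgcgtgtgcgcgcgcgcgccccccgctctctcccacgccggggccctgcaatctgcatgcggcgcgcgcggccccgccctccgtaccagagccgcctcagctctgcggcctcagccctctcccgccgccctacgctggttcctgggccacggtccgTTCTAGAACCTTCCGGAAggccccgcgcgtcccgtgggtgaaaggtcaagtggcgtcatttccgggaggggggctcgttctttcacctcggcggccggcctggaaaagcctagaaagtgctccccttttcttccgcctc

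For none of the 9 measured heat shock genes was a difference between cocaine and saline mice larger than the spread between pairs. Fitted log2 changes ran from -0.056 for Hspd1 to 0.12 for Hsp90aa1, with moderated standard errors of 0.067 to 0.11 (n = 4 pairs). Over the 9 genes, 5 were above 0 and 4 below, with a median of 0.030, where 47.3% of all genes were above 0 and their median was -0.0052. In limma, 0 of the 9 passed an adjusted p under 0.05 (all genes: 0%), their adjusted p-values lay between 0.969 and 0.991, and 0 of the 9 had an unadjusted p under 0.05 (all genes: 2.53%, of which 0.844% higher and 1.69% lower). Of the 9, 0 were above 0 in all 4 pairs (all genes: 2.62%) and 0 below 0 in all 4 (all genes: 3.09%), so none kept 1 sign (all genes: 5.71%). The 95% intervals of single genes reached down to 0.826-fold for Hspd1 and Hspa8 and up to 1.29-fold for Hspa1a, so larger changes of the mean lie outside them.

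**Figure D1:**
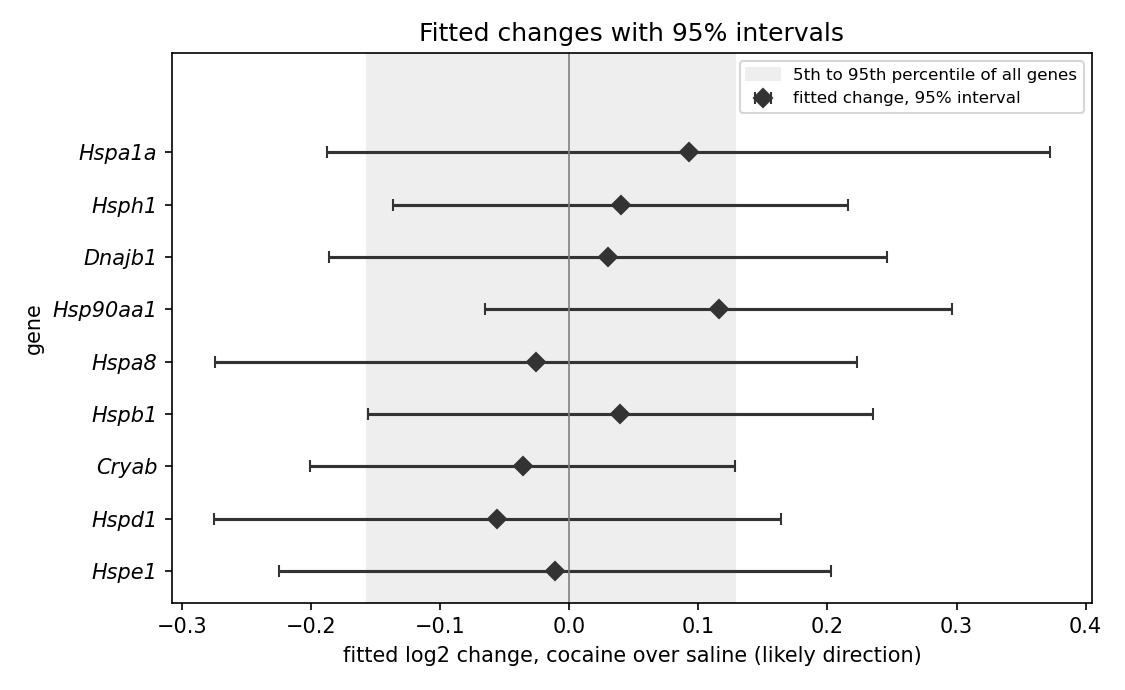
Fitted log2 change (x axis, cocaine over saline in the likely direction) of the 9 measured heat shock genes (y axis), as diamonds with 95% intervals from limma (n = 4 pairs). The grey band spans the 5th to 95th percentile of all 19081 genes, -0.16 to 0.13, and every interval includes 0.

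The deposited ratios were dominated by dye and signal, and the heat shock features followed that trend. Deposited medians over all features were 0.42, -0.58, 0.41 and -0.43 in pairs 1 to 4. Hsp90aa1, among the brightest features of the array by recovered signal, stood at 1.47, -2.27, 1.56 and -1.51 as deposited. It stood at 0.10, 0.32, 0.059 and -0.020 once the trend with signal had been taken out of each array. All values below are normalized in this way. With the arrays only centred on their medians, 8 of the 9 fitted changes were below 0 (median -0.18), because bright features then keep their trend, and again 0 of the 9 passed.

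**Figure D2:**
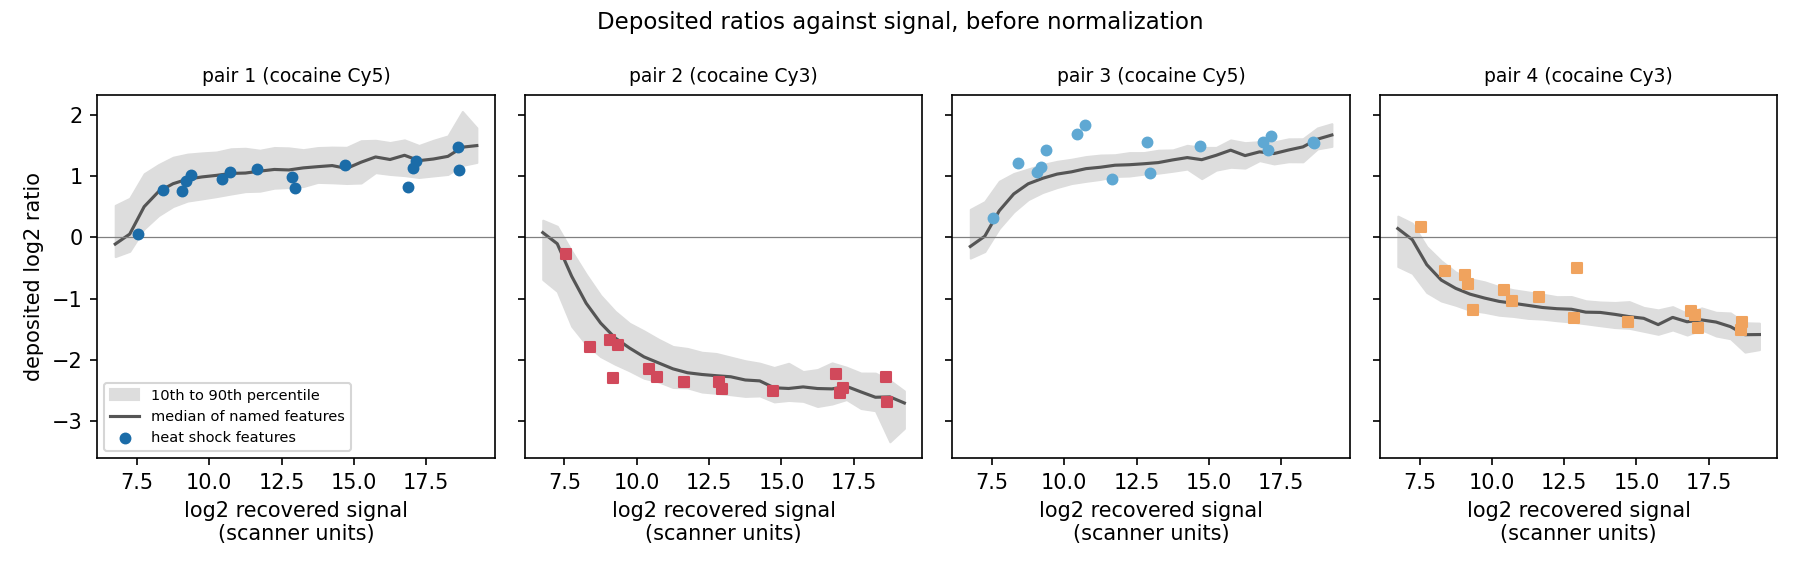
Deposited log2 ratio (y axis) against log2 recovered signal in scanner units (x axis), 1 panel per pair. The line and band are the median and the 10th to 90th percentile of the named features in steps of signal, and the points are the 16 heat shock features. The ratios rise with signal in pairs 1 and 3 and fall in pairs 2 and 4, and most heat shock features lie in or near the band.

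The heat shock genes differed from pair to pair. In pair 3, 7 of the 9 genes were above 0 (all genes: 50.8%), with a median ratio of 0.21. In pair 1, 2 of the 9 were above 0 (all genes: 47.6%), with a median of -0.065. Pair 2 had 3 of 9 above 0 (all genes: 48%) and a median of -0.12, and pair 4 had 5 of 9 (all genes: 50.7%) and a median of 0.012. The genes thus lay mainly above 0 in pair 3 and mainly below 0 in pairs 1 and 2. Markers of other cell types also differed from pair to pair, some with and some against the heat shock genes. In pair 3, 8 of 8 astrocyte, 7 of 7 microglia and 8 of 8 endothelial markers were above 0, but 3 of 11 oligodendrocyte, 4 of 8 pericyte and smooth muscle and 1 of 6 striatal neuron markers. In pair 2, 1 of 8 astrocyte, 1 of 7 microglia and 3 of 8 endothelial markers were above 0. In pair 1, where most heat shock genes were below 0, 6 of 8 astrocyte, 4 of 7 microglia and 7 of 8 endothelial markers were above 0, with medians of 0.15, 0.049 and 0.20. Striatal neuron markers had medians of -0.31, 0.39, -0.12 and -0.095 in pairs 1 to 4. Normalized ratios still differed by dye orientation. Their correlations across genes, which are not replicates, were 0.55 to 0.57 within and -0.43 to -0.71 between orientations. Marker ratios of single pairs can therefore include dye effects. The part of these cell types in the heat shock ratios was not tested. The SD over the 4 pairs was 0.12 to 0.31 for single members, with a median of 0.24, against 0.18 for the median gene of the array. Of the 9 members, 6 were above that median gene, and the SD includes the dye effect.

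**Figure D3:**
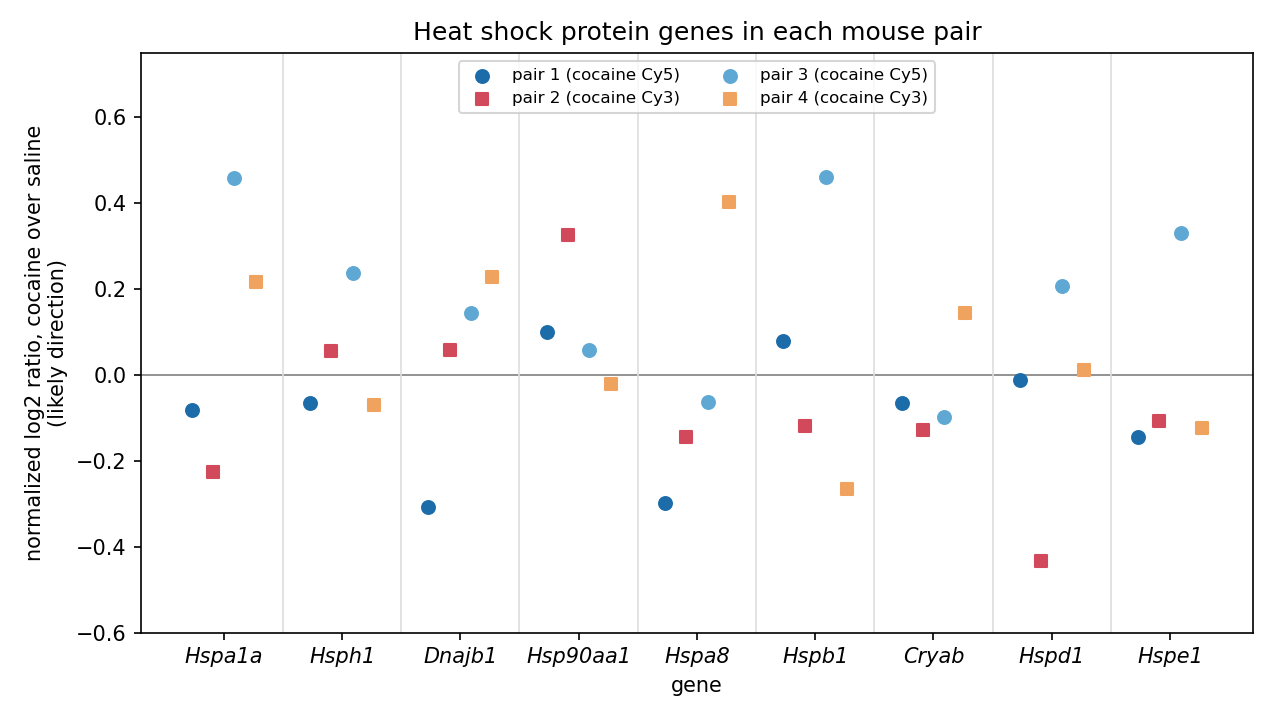
Normalized log2 ratio (y axis) of the 9 measured heat shock genes (x axis) in each of the 4 mouse pairs. Circles are pairs with cocaine in Cy5 and squares pairs with cocaine in Cy3; several features of a gene are averaged. Hspa1a, Hspb1 and Hspe1 are highest in pair 3, at 0.46, 0.46 and 0.33, and every gene has points on both sides of 0.

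Among the inducible cytosolic chaperones, Hspa1a encodes the HSP70 that is strongly switched on by heat and other stress. Its ratios were -0.082, -0.23, 0.46 and 0.22 in pairs 1 to 4, so the pairs split evenly around 0. The fitted log2 change was 0.092 ± 0.11 (moderated SE; limma adjusted p = 0.970), and the 95% interval ran from -0.19 to 0.37. The 4 Hspa1a features did not run alike. The brightest, at a signal of 1673 units, had 0.026, -0.27, 0.73 and 0.024 in pairs 1 to 4. The second, at 1381 units, had -0.060, -0.19, 0.61 and 0.19. Both were far higher in pair 3 than in any other pair. The third, at 335 units, had 0.011, -0.63, 0.47 and 0.16. The dimmest, at 187 units and so below the median named feature, had -0.30, 0.18, 0.029 and 0.49. The 3 brighter features averaged 0.60 in pair 3 and -0.36 in pair 2, with -0.0078 and 0.13 in pairs 1 and 4. In that average pair 3 was the high pair, and the dimmest feature did not share this.

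The Hspa1a and Hspa1b promoter windows were identical at 296 of 300 bases. The 2 genes are near-identical neighbours on chromosome 17 and encode almost the same protein, so features named Hspa1a may also bind Hspa1b RNA, and the 2 transcripts cannot be told apart here. Red cell transcripts (Hba-a1, Hba-a2 and Alas2, median ratio) stood at -0.29, -0.55, 0.18 and 0.42 in pairs 1 to 4, on the same side of 0 as the Hspa1a mean in each pair. Of the single Hspa1a features, only the second brightest shared all these signs. The brightest and the third were above 0 in pair 1 (0.026 and 0.011), and the dimmest was above 0 in pair 2 (0.18). The part of red cells in the Hspa1a ratios was not tested.

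Hsph1, an HSP110 that serves HSP70 as a nucleotide exchange factor, had ratios of -0.065, 0.055, 0.24 and -0.069. Only pair 3 stood away from 0. Its fitted change was 0.040 ± 0.072, with an interval of -0.14 to 0.22. Dnajb1, a J-domain protein that hands substrates to HSP70, had -0.31, 0.057, 0.14 and 0.23, low in pair 1 and above 0 in the other 3. Its fitted change was 0.030 ± 0.088. The brighter Dnajb1 feature had -0.47, 0.26, 0.14 and 0.20, and the dimmer one -0.15, -0.15, 0.15 and 0.26. The 2 features agreed in sign in pairs 1, 3 and 4 and opposed each other in pair 2.

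The pattern most like the mean of Hspa1a, Hsph1 and Dnajb1 (-0.15, -0.038, 0.28 and 0.13 in pairs 1 to 4) was sought among 19072 other genes by Euclidean distance over the 4 pairs. The nearest were Slc2a5, Isg20, Rab17, P2ry12 and Bcar3, at distances of 0.046 to 0.094, against a median distance of 0.49. Each of these 5 was likewise above 0 in pairs 3 and 4 and below 0 in pairs 1 and 2. With 4 points per gene and so many genes, such matches are a description only.

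**Figure D4:**
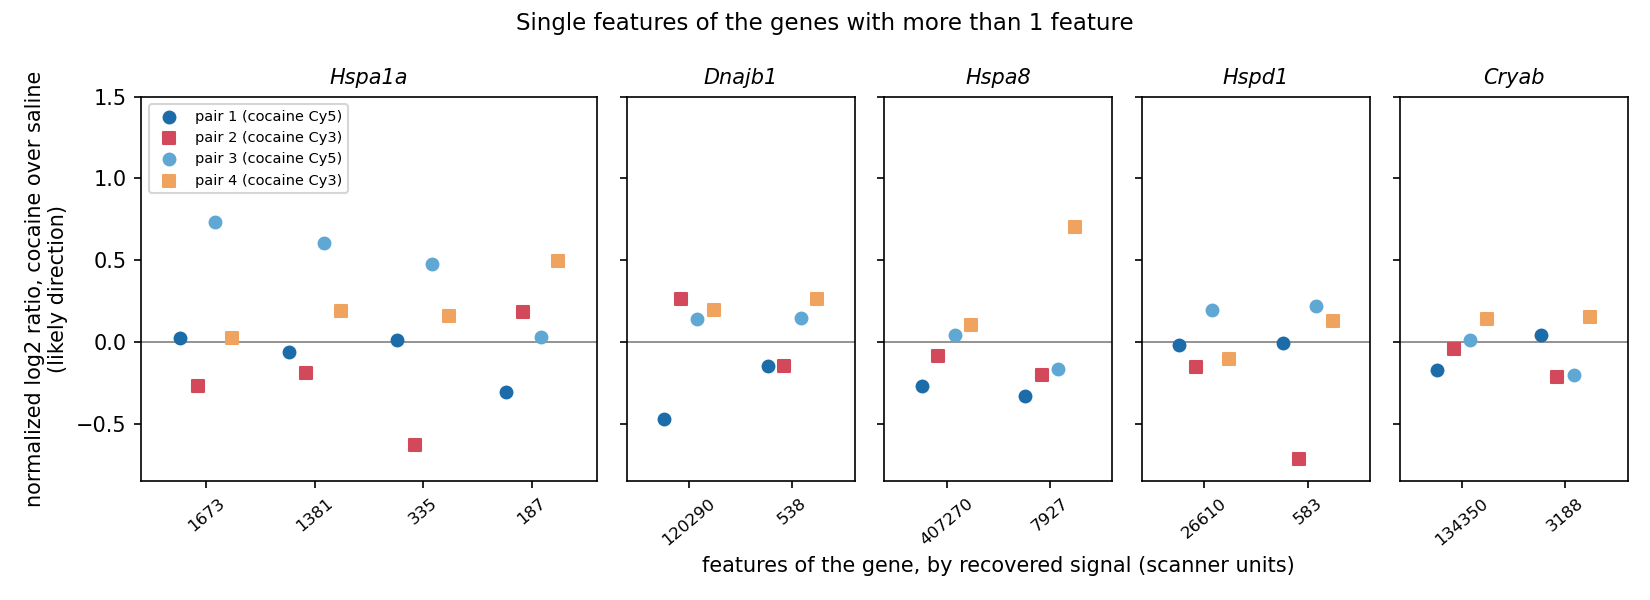
Normalized log2 ratio (y axis) of every feature of the 5 heat shock genes with more than 1 feature, placed by recovered signal in scanner units (x axis), with 1 point per pair. The 3 brighter Hspa1a features are high in pair 3 (0.47 to 0.73), the dimmer Hspa8 feature is high in pair 4 (0.70), and the dimmer Hspd1 feature is low in pair 2 (-0.71).

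Hsp90aa1 and the brighter Hspa8 feature were among the brightest features measured, by recovered signal. Hsp90aa1, the alpha form of HSP90, which matures kinases and steroid receptors, had the largest fitted change of the 9 genes, at 0.12 ± 0.074 (moderated SE; limma adjusted p = 0.969). Its ratios were 0.10, 0.32, 0.059 and -0.020, above 0 in 3 pairs with pair 2 the highest. The change was 0.029 without pair 2 and 0.20 without pair 4, the latter with an unadjusted limma p of 0.0269 and an adjusted p of 0.296. In that fit 2548 of all 19081 genes had an unadjusted p under 0.05, so such a p is not particular to Hsp90aa1. Pair 2, the highest for Hsp90aa1, was then the only array with cocaine in Cy3. Hspa8, the constitutive HSP70 that also strips clathrin from vesicles, had -0.30, -0.15, -0.064 and 0.40, below 0 in all pairs but the fourth. Its fitted change was -0.026 ± 0.10. The brighter Hspa8 feature (407270 units) had -0.27, -0.085, 0.039 and 0.10, and the dimmer one (7927 units) had -0.33, -0.21, -0.17 and 0.70. The high value of pair 4 thus came mainly from 1 feature, where the median of 44 neighbouring features of that array was 0.031.

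The brightest features leave little to normalize against. Only 242 to 246 named features lay within 1 log2 unit of the signals of Hsp90aa1 and the brighter Hspa8 feature, against 5194 for the brightest Hspa1a feature. Of the 16 features, 5 had a recovered signal above the largest value that a 16-bit scanner reading can hold: Hsp90aa1, Hsph1 and the brighter features of Hspa8, Cryab and Dnajb1. These 5 signals rest on whole numbers tried up to 2000000, so their brightness, and the trend taken out at it, is less certain. Whether they are true readings was not tested, nor was saturation.

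The small heat shock proteins hold unfolding proteins without using ATP. Hspb1 (HSP27), found in vessels and in reactive glia, had 0.080, -0.12, 0.46 and -0.26 in pairs 1 to 4. It was above 0 in both pairs with cocaine in Cy5 and below 0 in both pairs with cocaine in Cy3. Its dye effect was 0.23 ± 0.080 (limma unadjusted p = 0.0279, adjusted p = 0.117), the largest of the 9 genes, while the fitted treatment change was 0.039 ± 0.080. It was the only member with an unadjusted dye p under 0.05 (all genes: 30.5%), and 0 of the 9 passed for dye at an adjusted p under 0.05 (all genes: 12.4%). Endothelial markers had medians of 0.20, -0.10, 0.083 and -0.0084, and pericyte and smooth muscle markers 0.013, -0.082, 0.0062 and 0.034. Their part in the Hspb1 ratios was not tested.

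Cryab, the small heat shock protein alpha B crystallin, is abundant in oligodendrocytes. Its ratios of -0.065, -0.13, -0.097 and 0.15 had the smallest SD of the 9 genes, 0.12, and the fitted change was -0.036 ± 0.067. The interval ran from -0.20 to 0.13, or 0.870-fold to 1.09-fold. Both features were highest in pair 4, at 0.14 and 0.15. Of 11 oligodendrocyte and myelin markers, 9 were above 0 in pair 1 and 4 in pair 2, with median ratios of 0.49, -0.35, -0.029 and 0.039 in pairs 1 to 4. Cryab was below 0 in both of these pairs, and the part of the myelin markers in its ratios was not tested.

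The mitochondrial chaperonin is made of HSP60, encoded by Hspd1, and its lid HSP10, encoded by Hspe1. The genes lie head to head on chromosome 1, and 285 bases of the Hspe1 promoter printed above are also in a promoter entry of Hspd1, with the same heat shock repeat read from the other strand. Hspe1 had -0.14, -0.11, 0.33 and -0.12, above 0 in pair 3 alone, and a fitted change of -0.011 ± 0.087. The brighter Hspd1 feature (26610 units) had -0.018, -0.15, 0.20 and -0.11, with the same sign as Hspe1 in each pair and differences from it of 0.018 to 0.13 in size. The dimmer Hspd1 feature (583 units) had -0.0043, -0.71, 0.22 and 0.13, and it set the low value of pair 2. Averaged over both features, Hspd1 stood at -0.011, -0.43, 0.21 and 0.012, with a fitted change of -0.056 ± 0.090 and an interval of -0.28 to 0.16.

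Taken one at a time, 0 of the 16 features had an unadjusted limma p under 0.05 (all named features: 2.02%), and 0 were above 0 in all 4 pairs (named features: 3.01%) and 0 below 0 in all 4 (named features: 2.71%). Local medians around the 16 features lay between -0.11 and 0.16 on the 4 arrays. Without 1 pair, the fitted change of 8 of the 9 genes crossed 0, and Hsp90aa1 alone kept its direction.

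The other chaperone genes of the cytosol and mitochondrion likewise gave no call. Over 5 lists with 69 measured genes, 34 were above 0 and 35 below, with a median of -0.00082, and in limma 0 had an adjusted and 0 an unadjusted p under 0.05 (all genes: 0% and 2.53%). Of 22 other family members of the cytosol, 12 were above 0. Hspa4l, an HSP110, had 0.077, 0.069, 0.25 and 0.0077 in pairs 1 to 4 (0.10 ± 0.061), and Dnajb2, a neuronal J-domain protein, had -0.029, -0.51, -0.21 and 0.097 (-0.16 ± 0.11, but -0.010 without pair 2).

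Of 13 other mitochondrial chaperones and proteases, 5 were above 0. Dnaja3, a mitochondrial J-domain protein, had a fitted change of 0.25 ± 0.10 (0.10 without pair 1 and 0.40 without pair 3), and Lonp1, a matrix protease, had -0.16 ± 0.088 (-0.051 without pair 2 and -0.27 without pair 4). Of 17 co-chaperones, 8 were above 0. Ptges3, the HSP90 co-chaperone p23, had 0.99 in pair 1 against -0.032 to 0.056 in the others, and 0.031 without pair 1. St13, which binds HSP70, was above 0 in all 4 pairs, at 0.047 to 0.23, with 0.13 ± 0.055.

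In the cytosolic chaperonin TRiC/CCT and its partner prefoldin, 7 of 13 genes were above 0. Pfdn5, a prefoldin subunit, was below 0 in all 4 pairs, from -0.28 to -0.0024 (-0.16 ± 0.066), and so was Cct7, a ring subunit, at -0.18 ± 0.083 (-0.079 without pair 2 and -0.28 without pair 4). Of the 4 measured genes among heat shock factors and their regulator, 2 were above 0 and 2 below. Hsf4 had -0.095 ± 0.10 and Hsf5 -0.065 ± 0.080, but Hsf4 stood at 0.050 without pair 1 and Hsf5 at 0.0011 without pair 4.

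The chaperones of the endoplasmic reticulum, a related group of genes, lay mainly above 0. There, 12 of 14 were above 0 (all genes: 47.3%) with a median of 0.12, and 5 had an unadjusted limma p under 0.05, all higher (all genes: 0.844%), led by Creld2 at 0.24 ± 0.056 and Manf at 0.24 ± 0.064, but none passed the adjusted threshold (smallest adjusted p = 0.969). The median depended on the normalization. It was -0.068 with the ratios as deposited (all genes: -0.083) and 0.0028 with median centring (all genes: -0.012). In pair 4 only 6 of the 14 were above 0. The difference between the 2 groups of chaperones was not tested.

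**Figure D5:**
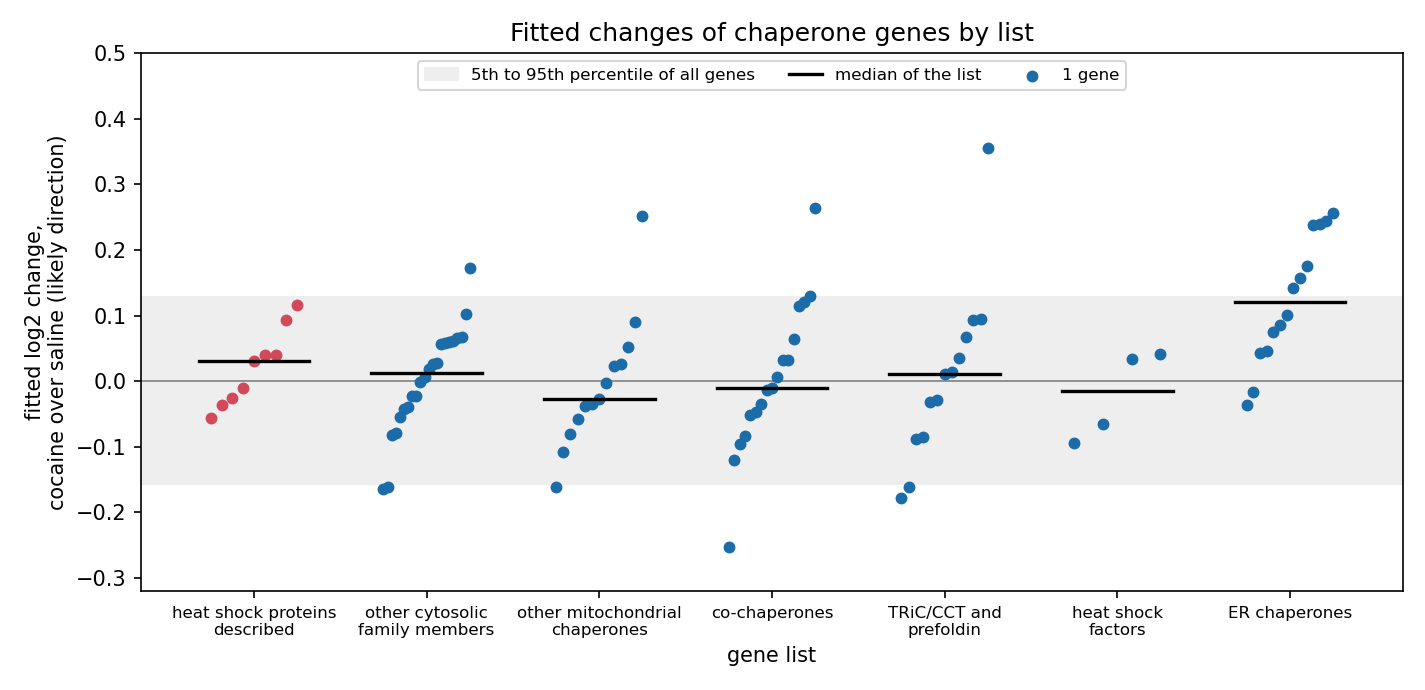
Fitted log2 change (y axis, cocaine over saline in the likely direction) of each measured gene, by list (x axis); black bars are list medians and the grey band is the 5th to 95th percentile of all genes. The 9 heat shock genes lie between -0.056 and 0.12, inside the band, and the endoplasmic reticulum chaperones have the highest median, 0.12.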

How the data were processed

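The deposited values are log2 ratios, 1 for each feature on each array, made with Agilent Feature Extraction per the submitters' processing notes; the sources used here give no version and no normalization. On arrays 1 and 3, 2 to the power of the value was a ratio of whole numbers up to 65535 for 98.3% of values (relative tolerance 1e-14), against 1.61% and 1.50% for base 10. The ratios are therefore read as log2 ratios of signals without background subtraction or dye normalization, so that changes of dim features are understated.

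For the signal, whole numbers were tried up to 2000000, beyond the limit of 65535 used for the shares above. A mean signal over both channels was obtained for 45003 features (floor 90 units, common multiple up to 200). Named features per step of log2 signal fell to 35 at 15.75 and rose again to 145 at 17.25. Whether signals above 65535 are true readings was not tested. Loess (span 0.3, 4 iterations, named features) was fitted on the recovered signal within each array. Features with 1 symbol in the platform annotation (33653; 56 had several and 11511 were not listed) were averaged per gene. The 19081 resulting genes were fitted with limma 3.58.1 in R 4.3.3 (dye term, eBayes, two-sided, Benjamini-Hochberg), with 2 residual and 4.02 prior degrees of freedom. Standard errors are moderated, with the dye effect taken out. Scripts were tested on simulated data. Of 100 genes changed by 0.5 log2, 41% passed an adjusted limma p under 0.05, and of 100 changed by 1 log2, 89%. There, 4 unchanged genes passed as well. Of the simulated signals, 86.2% were recovered within 0.25 log2. Neighbouring features were taken from a grid of 85 columns inferred from the values.

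The members and lists were chosen with earlier results of these data known. All members are named, and from each chaperone list the 2 genes with the smallest unadjusted p. Arrays carry different mice, so p-values set a change against the spread between pairs that is left after the dye term, moderated over all genes.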

Additional observations from a re-analysis of the deposited data

Results flagged for a closer look

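Among 48 series of 4 pair values checked (members, their single features, list medians and named genes), 5 had a single pair lying apart from the rest. About 1 in 20 series of independent normal values would do so. That rate need not hold here, as the pairs carry dye effects and the series overlap. Genes overlap with their own features, and Ptges3 with the co-chaperone median. Hspe1 had 0.33 in pair 3, with the rest at -0.14 to -0.11. The brighter Dnajb1 feature had -0.47 in pair 1 against 0.14 to 0.26. The dimmer Hspa8 feature had 0.70 in pair 4 against -0.33 to -0.17. The median of the co-chaperones had -0.060 in pair 2 against 0.054 to 0.059, and Ptges3 had 0.99 in pair 1 against -0.032 to 0.056. What sets these single values was not tested.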

How the results depend on the processing

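No member passed an adjusted p under 0.05 in limma under any alternative (smallest 0.296). With 4 pairs only, changes as small as those measured here are not resolved. Directions were not stable. With the ratios as deposited, where the median of all genes was at -0.083, the members' median was -0.26 and Hspa1a, Hsph1, Dnajb1, Hsp90aa1 and Hspb1 turned to -0.053, -0.26, -0.19, -0.19 and -0.13. With median centring the members' median was -0.18 and Hsph1, Dnajb1, Hsp90aa1 and Hspb1 turned to -0.18, -0.12, -0.11 and -0.056. These settings keep the trend of bright features, and 9 and 8 members then had a dye effect past the threshold, against 0. Hspe1 turned to 0.0093 with arrays scaled to the same spread and to 0.010 with local medians subtracted, and the dimmer Hspa8 feature alone gave 0.00054. Without replicate 1, 2, 3 or 4 the changes ranged from -0.043 to 0.23 for Hspa1a, -0.036 to 0.12 for Hsph1, -0.083 to 0.14 for Dnajb1, -0.16 to 0.11 for Hspa8, -0.056 to 0.13 for Hspb1, -0.13 to 0.11 for Hspe1, -0.17 to 0.055 for Hspd1 and -0.10 to 0.032 for Cryab. In the same fits 0 to 1 member had an unadjusted p under 0.05. The 1 member was Hsp90aa1 without replicate 4, where 2548 of all 19081 genes had such a p. Over these fits 0 to 1 gene was higher and 0 to 6 genes were lower at an adjusted p under 0.05. The count of genes at an unadjusted p under 0.05 was 483, but 72 as deposited, 186 with centring, 104 with no dye term and 175 to 2548 without 1 pair. Every fit is already paired within the array, which holds a cocaine and a saline mouse; the labels give no replicate numbers for a further block.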
